A study of Mus musculus with 2 samples.

Results

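The clustered protocadherin genes lie in 3 neighbouring clusters, alpha, beta and gamma, on mouse chromosome 18 (mm10). Members were all genes with a Pcdha, Pcdhb or Pcdhg symbol and number in that stretch, which gave 58 genes between 36930184 and 37841873, of 21938 protein-coding and 55413 annotated genes in GENCODE M21. They fell into 12 alpha, 22 beta, 12 gamma A, 7 gamma B and 5 c-type genes, the last being Pcdhac1, Pcdhac2, Pcdhgc3, Pcdhgc4 and Pcdhgc5. GENCODE M21 carries the symbol Pcdha11 on 2 records, and the first of them (ENSMUSG00000007440.10) lies where RefSeq places Pcdha10, so it is called Pcdha10 here. Pcdhgb8 is annotated as a polymorphic pseudogene.

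Binding of CTCF was measured by ChIP-seq, the sequencing of DNA pulled down with an antibody, in forebrain of newborn mice (postnatal day 0) of strain B6NCrl. The series holds 1 group of 2 libraries, biological replicates 1 and 2, from pulverized forebrains of several dissections. The labels give both libraries 1 biosample and 1 donor, so differences between them may be only technical. No genotype or treatment differed between the samples, and with 1 group no comparison between conditions can be made. CTCF peaks do not measure expression, so the labelled tissue could not be checked with marker genes, and a pooled tissue does not show in which or how many cells a site is bound.

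Clustered protocadherins are cell-surface adhesion proteins, and each neuron uses a small, largely random choice of them, which lets it tell its own branches from those of other neurons. Each alpha and gamma gene has its own promoter and long variable first exon, spliced to constant exons shared by the whole cluster, whereas beta genes have a single main exon with no shared part. CTCF, a zinc-finger protein, binds a conserved element in most of these promoters, and together with cohesin it links a chosen promoter to enhancers that lie beyond the variable exons. Pcdhac2, Pcdhb1, Pcdhgc4 and Pcdhgc5 are known to lack that conserved element.

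In newborn forebrain CTCF sites were present at most clustered protocadherin promoters, but most of these sites were weak by the standard of the genome. The optimal list, the authors' longer list of peaks that passed a test of reproducibility between the replicates (the irreproducible discovery rate), had a summit within 1 kb of a transcription start site (TSS) in 42 of the 58 members (72.4%), against 36.8% of all protein-coding genes. By class these were 8 of 12 alpha, 14 of 22 beta, 12 of 12 gamma A, 5 of 7 gamma B and 3 of 5 c-type genes. Taking the strongest site of each of the 42, the median signal value was 33.9, compared with 56.7 for the 8081 protein-coding genes with a site. The signal value is the height that the authors' software gave each peak, on a scale that is not stated, and it is used here to rank and describe sites. Only 8 of the 42 members (19.0%) had a site above the median of the whole optimal list, which was 64.3, against 45.8% of protein-coding genes with a site. The list's reproducibility score stood at its ceiling of 1000 for 27 of the 42 member sites, against 77.1% of the optimal list. Shares over genes are descriptions and were not tested, since neighbouring members arose by duplication and the design has no second group.

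**Figure D1:**
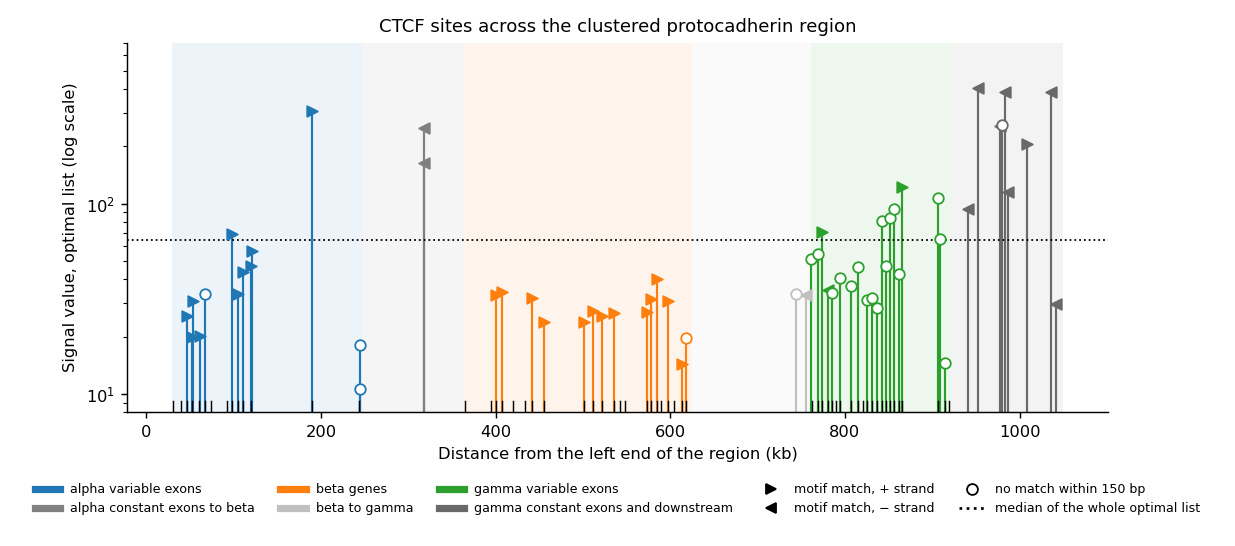
Signal value (log scale) of the 60 optimal-list CTCF sites against distance along the clustered protocadherin region, coloured by segment, with gene starts as ticks along the bottom. Arrowheads give the strand of a weight-matrix motif match within 150 bp of the summit and open circles mark sites without one. The sites of the alpha and beta genes that have a match point right, those between alpha and beta and most of those past the gamma genes point left, and the 3 strongest sites, at 385 to 403, lie past the gamma genes.

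A stretch of 1050 kb that holds the 3 clusters and the DNA on both sides had 60 optimal-list summits, of 56462 placed on chromosomes 1 to 19, X and Y. That is 5.71 per 100 kb, against 2.07 over the genome. The variable exons of gamma were the densest segment, with 20 summits or 12.3 per 100 kb. The alpha variable exons had 13 (5.95 per 100 kb) and the beta genes 14 (5.35 per 100 kb). The interval from the alpha constant exons to the beta genes held 2, the interval between beta and gamma 2, and the gamma constant exons with the DNA behind them 9. The 29.2 kb ahead of the first alpha gene held 0. Of the 60 summits, 44 lay within 1 kb of a member TSS and 16 did not. Strength differed between the segments. The median signal values were 33.7 in the alpha segment, 27.2 in the beta segment and 46.8 in the gamma variable segment. The interval between beta and gamma, with 33.2, was in the range of these. The interval behind alpha had a median of 205 and the segment from the gamma constant exons onward one of 254.

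Gamma A genes carried the most complete set of promoter sites and, c-type genes aside, the highest class median in the optimal list. The gamma A genes had signal values of 28.4 to 122 with a median of 46.8, and 3 of 12 exceeded the list median. In the replicates, their medians were 29.1 in replicate 1 and 17.6 in replicate 2. The strongest was Pcdhga12, the last gamma A gene, with 122 in the optimal list, 75.2 in replicate 1 and 45.5 in replicate 2. Its summit lay 316 bp inside its annotated first exon, unlike the other 11 gamma A genes, whose summits were 26 to 125 bp upstream of the start. Pcdhga11 followed with 94.0 (53.2 in replicate 1 and 40.6 in replicate 2), and the weakest was Pcdhga9 with 28.4 (16.6 and 11.6). Pcdhga12 stood above Pcdhga9 in both replicates, as it did above every other gamma A gene.

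Among the gamma B genes, 5 of 7 had a site, with a median of 42.5. Pcdhgb7 was the strongest at 84.0, with 46.1 in replicate 1 and 35.1 in replicate 2, next to Pcdhgb6 at 81.4, with 44.0 and 37.1. The weakest site was that of Pcdhgb5 at 31.8, with 13.9 in replicate 1 and 15.9 in replicate 2. Pcdhgb2 and Pcdhgb4 had no optimal-list site. Both had a peak in the pooled list, called on both libraries together, with signal values of 15.5 for Pcdhgb2 and 21.9 for Pcdhgb4. For Pcdhgb2, replicate 1 had a peak of 12.1 and replicate 2 none within 1 kb. Of the 5 gamma A and B genes above the list median, Pcdhgb6, Pcdhgb7, Pcdhga11 and Pcdhga12 are among the last genes before the c-type exons and Pcdhga3, at 71.0, is near the start of the cluster. Genes lying between the later ones had lower values, 46.8 for Pcdhga10 and 42.5 for Pcdhgb8.

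Alpha genes had fewer sites, and their signal values ran from 20.1 to 69.0 with a median of 33.7. The class medians were 18.1 in replicate 1 and 16.3 in replicate 2. Pcdha9 was the strongest at 69.0, and the only alpha gene above the list median, with 26.7 in replicate 1 and 41.5 in replicate 2. It was the member of the class whose replicates leaned most to replicate 2. Pcdha5 was the weakest at 20.1, with 10.4 and 8.88. The members of the class without an optimal-list site were Pcdha1, Pcdha2, Pcdha7 and Pcdha8. Their pooled-list values were 15.8 for Pcdha1, 17.5 for Pcdha2, 14.7 for Pcdha7 and 5.76 for Pcdha8, the last being the lowest of all members. Pcdha8 had no peak within 1 kb in replicate 1 and one of 3.90 in replicate 2. Along the 8 alpha genes with a site, the signal value was higher at later genes of the cluster (Spearman's rho 0.79 in the optimal list, 0.81 in replicate 1 and 0.76 in replicate 2). This is a description across 8 sites of the same 2 libraries. It leaves out the genes without an optimal-list site, among them Pcdha7 and Pcdha8 in the middle of the cluster. For Pcdha4, Pcdha5 and Pcdha12 the value ranked is that of a site inside the first exon. The same coefficient was 0.29 over the 17 gamma A and B sites (0.54 in replicate 1, 0.16 in replicate 2) and −0.38 over the 14 beta sites (−0.27 in replicate 1, where Pcdhb21 has no peak and 13 sites remain, and −0.11 in replicate 2).

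Beta genes had the weakest sites of the 5 classes and the narrowest range. Their signal values ran from 14.4 to 40.0 with a median of 27.2, none above the median of the optimal list, and the class medians were 15.4 in replicate 1 and 11.5 in replicate 2. Pcdhb17 was the strongest at 40.0, with 20.3 in replicate 1 and 18.6 in replicate 2. Pcdhb21 was the weakest at 14.4, with no peak in replicate 1 and 9.93 in replicate 2. The 8 genes without an optimal-list site were Pcdhb1, Pcdhb2, Pcdhb5, Pcdhb6, Pcdhb13, Pcdhb14, Pcdhb18 and Pcdhb20. The pooled list had a peak at each, of 7.35 for Pcdhb1 and 15.5 to 20.1 for the other 7. Pcdhb1, which lies apart from the rest at the start of the cluster and lacks the conserved element, had no peak within 1 kb in replicate 1 and one of 3.68 in replicate 2.

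**Figure D2:**
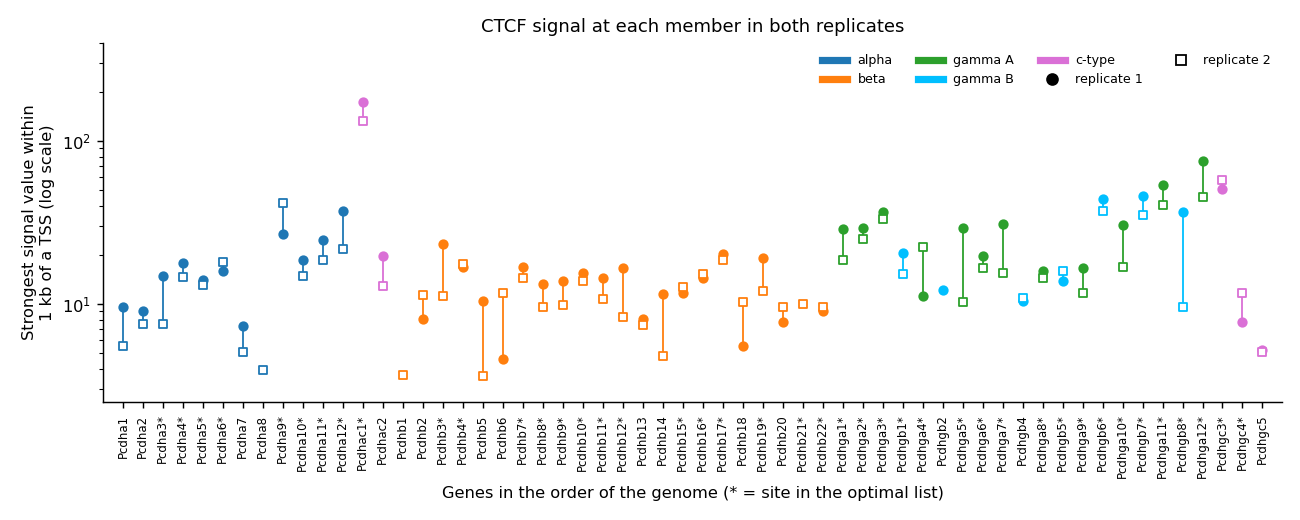
Strongest signal value (log scale) within 1 kb of a TSS of each of the 58 members in the replicate 1 and replicate 2 lists, in genome order and coloured by class. Asterisks mark the 42 genes with an optimal-list site. Pcdhac1, at 172 in replicate 1 and 132 in replicate 2, stands above every other member, and the beta genes run between 3.62 and 23.1.

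The c-type genes spanned the whole range of strengths. Pcdhac1 had the strongest site of all members at 305, the 92.6th percentile of the optimal list, with 172 in replicate 1 and 132 in replicate 2 and the summit 50 bp upstream of the start. Pcdhgc3 had 107, with 50.6 in replicate 1 and 57.6 in replicate 2, 87 bp upstream of its nearest TSS. The other 3, all genes known to lack the conserved element, were weak. Pcdhgc4 had an optimal-list site of 14.5, which lay 462 bp upstream and had no peak in replicate 1 and 8.22 in replicate 2. Its strongest pooled-list peak within 1 kb was 17.2. Pcdhac2 had no optimal-list site within 1 kb, but a pooled-list peak of 27.6 at 201 bp inside the gene, with 19.7 in replicate 1 and 12.8 in replicate 2. Pcdhgc5 had 6.37 in the pooled list, with 5.23 in replicate 1 and 5.05 in replicate 2. Of the 4 members known to lack the element, 1 had an optimal-list site within 1 kb, and it was the second weakest of the 42. Pcdhac2 was in the conservative list, however, with 27.6, close to the beta median of 27.2. It also had 2 optimal-list sites farther inside its first exon, but their peaks overlap and share the same peak in each replicate (13.5 and 3.49).

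The 16 members without an optimal-list site were not empty of signal. Every one of them had a pooled-list peak within 1 kb, with values of 5.76 to 27.6 and a median of 16.5. All 58 members therefore had a pooled-list summit, against 68.5% of protein-coding genes, and the median of the strongest was 30.8 for the members and 24.2 for those genes. That list holds 300000 peaks, many of them weak. At a q-value of 0.05 or lower, 55 members kept a peak, against 54.5% of protein-coding genes. Those that lost it were Pcdha8, Pcdhb1 and Pcdhgc5. Replicate 1 had a peak at 55 members, against 68.0% of protein-coding genes, replicate 2 at 57, against 67.2%, and both at 54, against 62.2%. The conservative list, the authors' stricter list, had a summit at 38 members, against 35.5% of protein-coding genes. The 2 lists did not nest. The conservative list had Pcdha2, Pcdhac2 and Pcdhgb4, which the optimal list lacked, and it lacked 7 that the optimal list had, so that 45 members were in either list.

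Sites at the clustered protocadherin promoters lay in a narrow band just upstream of the start of the gene. Of the 44 optimal-list summits within 1 kb, 39 were upstream, 22 to 462 bp from the nearest TSS with a median of 68 bp, and 5 were downstream, at 143 to 561 bp. The quartiles of the upstream distances were 42 and 92.5 bp. A summit 0 to 250 bp upstream was found in 38 of the 58 members, against 15.1% of protein-coding genes. By class that was 7 alpha, 13 beta, 11 gamma A, 5 gamma B and 2 c-type genes. Some distances depend on the gene model: the summit of Pcdhb17 lay 143 bp inside the GENCODE start but 83 bp upstream of the RefSeq start. The summit of Pcdhb22 lay 91 bp upstream of one of its TSSs and inside the transcribed end of Pcdhb21. The farthest summit inside the 1 kb window was the exonic site of Pcdha4 at 561 bp. The nearest ones outside were 2 sites in the first exon of Pcdhac2, at 1130 and 1344 bp, with signal values of 18.1 and 10.6.

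Alpha genes had a further row of summits inside their variable exons. Pooled-list summits 450 to 650 bp downstream of the gene start were found in 9 of 12 alpha genes (75.0%), against 12.5% of protein-coding genes. No beta, gamma B or c-type gene had one, and 1 of 12 gamma A genes did, Pcdhga11. Across all 58 members the share was 17.2%. The exonic peak passed a q-value of 0.05 in 6 of the 9, and it was in the optimal list in Pcdha4, Pcdha5 and Pcdha12. The band lies where alpha summits fall and was not among the planned comparisons, so its counts are a description. Past the first 250 bp of the first exon, the pooled list had a summit in 11 of 12 alpha and 11 of 22 beta genes. It had one in 3 of 12 gamma A, 1 of 7 gamma B and 4 of 5 c-type genes. At a q-value of 0.05 the class counts were 6, 4, 1, 0 and 3, but several of these summits are promoter sites. Those of Pcdhb21 and Pcdhb22 are the same summit, 91 bp upstream of a Pcdhb22 TSS. That of Pcdhb17 lies 58 bp upstream of Pcdhb18. The gamma A one is the main site of Pcdhga12, at 316 bp, and the strongest of Pcdhgc4 lies 27 bp upstream of another of its TSSs. In most of the 11 beta genes with a pooled-list summit there, the strongest lay 2048 to 2424 bp in. In Pcdha12 the exonic site, 542 bp from the start, had a signal value of 56.0, with 37.3 in replicate 1 and 18.3 in replicate 2. The promoter site of Pcdha12 had 47.1, with 25.8 and 21.6, so that the exonic site was higher in replicate 1 and lower in replicate 2. In Pcdha4 the exonic site had 30.8 (17.7 in replicate 1, 14.6 in replicate 2) and the promoter site 19.8 (13.4 and 7.12), and the exonic site was higher in both. In Pcdha5 the optimal list had only the exonic site, at 20.1, while the pooled and the conservative list also had the promoter, at 27.3. The exonic sites of Pcdha4 and Pcdha12 matched the CTCF consensus of 14 bases with 0 mismatches and that of Pcdha5 with 1, all on the strand of the gene. The promoter sites of Pcdha4 and Pcdha12 did not match it with 2 or fewer. An exonic site of another kind stood in Pcdhgc3, 2555 bp from its nearest TSS, with 65.4 in the optimal list, 33.9 in replicate 1 and 33.3 in replicate 2.

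**Figure D3:**
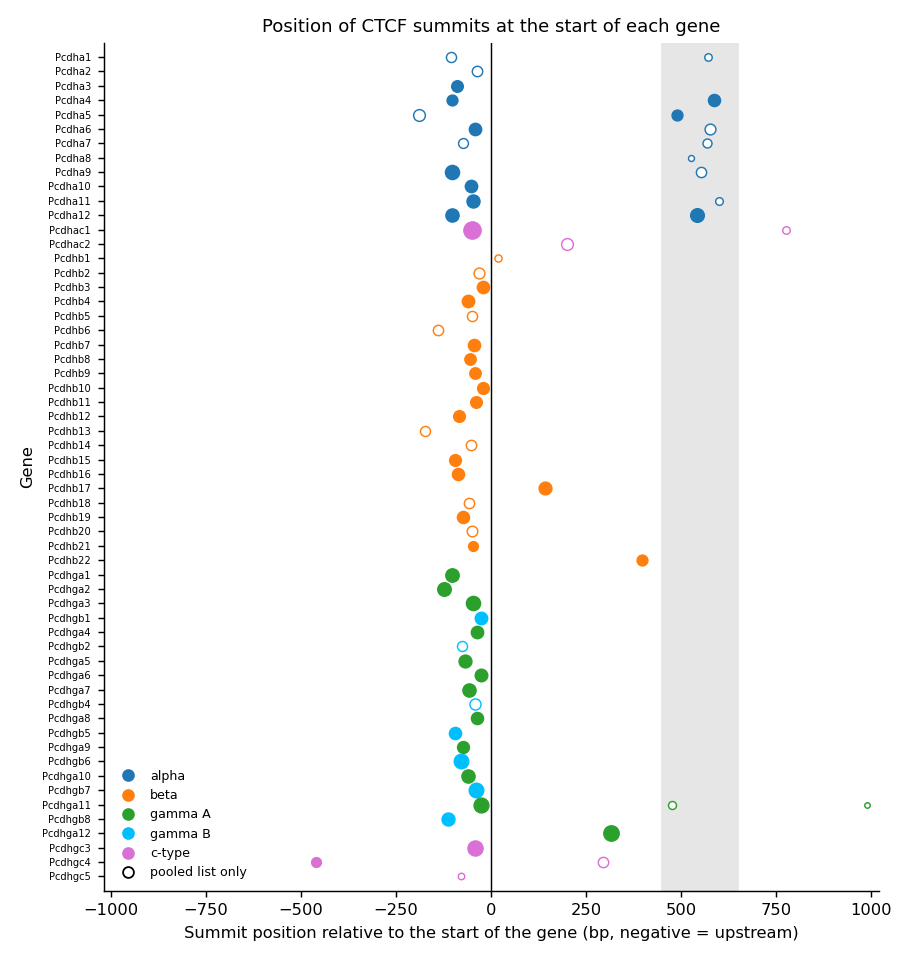
Distance in bp of each optimal-list (filled) and pooled-list (open) CTCF summit from the start of each member gene, negative values lying upstream, with larger points for higher signal values. The grey band marks 450 to 650 bp downstream. Most genes have a summit just upstream of 0, and 9 of 12 alpha genes have one in the band.

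Alpha and beta sites held the common CTCF motif on the strand of the gene, and gamma sites mostly did not. A weight matrix of 20 bases, learned from 36553 consensus matches on other chromosomes, was scored within 50 bp of each summit, at a threshold that 5.00% of flanking windows pass. It matched the strongest site of 7 of 8 alpha and 13 of 14 beta genes. Among gamma genes it matched 1 of 12 gamma A sites, that of Pcdhga3, and 0 of 5 gamma B sites, and among c-type genes 1 of 3, that of Pcdhac1. Over all 42 members the share was 52.4%, against 48.9% of protein-coding genes with a site. The strand differed more: all 22 matches at the members lay on the strand of the gene, against 56.0% of the 3948 matches at promoter sites of protein-coding genes. The median signal value was 31.1 for the 22 members with a match and 41.7 for the 20 without, but 20 of the 22 were alpha or beta genes. Within the gamma A and c-type classes the gene with a match was above its class median, at 71.0 for Pcdhga3 and 305 for Pcdhac1. The beta gene without a match, Pcdhb22, was below its class median, at 19.8, and the alpha gene without one, Pcdha6, was at 33.7, level with its class median. The stricter consensus, with at most 2 mismatches, matched 5 alpha, 3 beta, 0 gamma and 1 c-type member site, again all on the strand of the gene. For Pcdha4, Pcdha5 and Pcdha12 the strongest site, scored by both rules, lies inside the first exon. These exonic sites are among the 5 alpha consensus matches, along with the promoter sites of Pcdha3 and Pcdha9.

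By the weight matrix, the promoters themselves showed the same split, whether or not a site was called. In the 300 bp from 250 bp upstream to 50 bp downstream of the start, the weight matrix matched 32 of 58 members (55.2%), against 22.1% of 21932 protein-coding promoters. By class these were 11 alpha, 19 beta, 1 gamma A, 0 gamma B and 1 c-type promoter. All 32 matches lay on the strand of the gene, against 56.8% of matches in protein-coding promoters. Of the 12 alpha and beta genes without an optimal-list site, 11 still had a match, Pcdhb1 being the exception, as did 19 of the 22 with a site. The 300 bp follow the GENCODE start and did not reach the summits of Pcdhb17, Pcdhb22 and Pcdhga12. These lay 143, 397 and 316 bp inside the gene, and none of the 3 counted as a match here. The sites of Pcdhb17, within 50 bp of the summit, and Pcdhga12, within 150 bp, did have one. The consensus with at most 2 mismatches matched fewer of the 300 bp promoters: 2 alpha, 5 beta, 0 gamma A, 0 gamma B and 2 c-type.

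**Figure D4:**
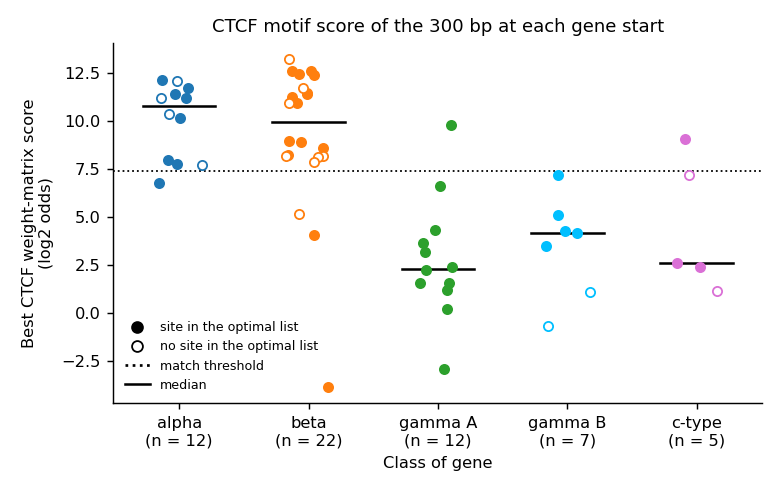
Best CTCF weight-matrix score (log2 odds) in the 300 bp at the start of each member, by class, with filled points for genes with an optimal-list site and open points for those without. Bars are medians and the dotted line is the threshold of 7.41. 30 of the 34 alpha and beta promoters lie above the line, and 1 of the 19 gamma A and B promoters does. The 300 bp do not reach the summits of Pcdhb17, Pcdhb22 and Pcdhga12.

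Most alpha, beta and gamma A promoters shared a short word within their class. In genes with the word whose strongest site was at the promoter, it lay close to the summit. For each class the word of 7 bases that stood in most of its promoters, read on the gene strand, was picked after the sequences were seen, so its count in that class is a description. TGTCGCT stood in 11 of 12 alpha promoters, against 1.04% of all protein-coding promoters, with its median position 86 bp upstream. Pcdha10 was the one without it. GGTGGCG stood in 18 of 22 beta promoters, against 3.84%, at a median of 52.5 bp upstream, and the exceptions were Pcdhb1, Pcdhb16, Pcdhb17 and Pcdhb22. CGCTGTT stood in 11 of 12 gamma A promoters, against 1.05%, at a median of 49 bp upstream, with Pcdhga12 as the exception. For Pcdhb17, Pcdhb22 and Pcdhga12 the stretch searched did not reach the summit, so a word near it would be missed. CGCCGCT stood in 5 of 7 gamma B and 6 of 12 gamma A promoters, against 3.41%. TGGGGAG stood in 3 of 5 c-type promoters, against 5.31%, and lay far from the summits. In genes with a site, the word fell within 50 bp of the strongest summit in all 11 beta genes and all 11 gamma A genes that had both. It did so in 4 of 7 alpha genes. The rest were Pcdha4, Pcdha5 and Pcdha12, whose strongest summit is the one inside the first exon, so their promoter summits were not measured here. The beta word fits a run of 7 bases of the CTCF consensus. Its place near the beta summits is therefore not separate from the motif match. With both strands counted, the shares of all promoters were 2.02% for the alpha word, 6.97% for the beta word and 2.07% for the gamma A word. The shorter word CGCT, which is the core of the conserved element and is contained in the alpha, gamma A and gamma B words, stood on the gene strand in 51 of 58 members, against 51.1% of promoters. On either strand it stood in 56 members, against 67.1%. These include Pcdhac2, Pcdhb1, Pcdhgc4 and Pcdhgc5, so the short word does not set apart the genes known to lack the element. The members were also less rich in G and C, at a median of 39.7% against 55.0% for all promoters, except for the c-type genes at 54.7%.

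Strong sites lay outside the member promoters, in the stretches where the enhancers of the clusters are known to be. The 3 strongest of the region, 403, 387 and 385, were past the gamma genes, the last of them near a TSS of another gene, and the promoter site of Pcdhac1, at 305, came next. Behind the alpha constant exons stood a pair of intergenic sites 953 bp apart. The site nearer to alpha (chromosome 18, 37217390 to 37217591) lay 29824 bp past the end of the alpha genes and had a signal value of 162, with 92.9 in replicate 1 and 70.2 in replicate 2. The other (37218312 to 37218548) had 248, with 132 in replicate 1 and 116 in replicate 2. Each matched the consensus with 1 mismatch on the minus strand, opposite to the genes. Their values exceeded those of every member except Pcdhac1 in both replicates. The files do not name enhancers, and the pair is given by its position alone.

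Behind the gamma genes, 8 summits lay past the last shared exon, 7 of them above the median of the optimal list. In introns of Diaph1, a neighbouring gene that encodes an actin regulator, the sites had 403 (37852141 to 37852495), 254 (37877409 to 37877634), 259 (37880295 to 37880541), 387 (37883504 to 37883860), 116 (37887117 to 37887195) and 206 (37908130 to 37908351). They began 10448 bp past the end of the gamma genes. A further site of 385 (37935527 to 37935817) lay 200 bp upstream of a Diaph1 TSS. The strongest, 403, had 215 in replicate 1 and 189 in replicate 2, and the weakest of these 7, 116, had 69.9 and 45.5. The shared 3′ untranslated exon of gamma itself had a site of 93.6 (37841328 to 37841627), with 55.7 in replicate 1 and 39.1 in replicate 2. The remaining site, in an intron of Hdac3, which encodes a histone deacetylase, had 29.8. Of the 9 sites from the gamma constant exons onward, 6 exceeded every gamma A and gamma B site.

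The strand of the motif changed between the gene segments and the flanking ones. By the weight matrix within 50 bp, the 47 sites of the alpha variable, beta and gamma variable segments had 24 matches on the plus strand, on which all members are transcribed, and 0 on the minus strand. The interval behind alpha and the stretch from the gamma constant exons onward had 7 on the minus strand and 1 on the plus strand. By the consensus with at most 2 mismatches, the counts were 9 plus and 0 minus in the gene segments, and 1 plus and 7 minus in the other 2. Over the 60 sites, 53.3% had a weight-matrix match, against 78.0% of the whole optimal list, and 28.3% had a consensus match, against 66.6%. Some strong sites had their match farther out. Within 150 bp of the summit the weight matrix matched 61.7% of the 60 sites, against 82.4% of the optimal list and 15.7% of flanking windows. The added ones include the Diaph1 sites of 403 and 387, both on the minus strand. The Diaph1 site of 259 had no match even then.

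The replicates placed the sites of the region alike but differed in strength by up to severalfold at some of them. Of the 60 sites, 58 had an overlapping peak in both replicates, and the 2 without one in replicate 1 were the 2 weakest member sites, at Pcdhb21 and Pcdhgc4. The 58 include the 2 overlapping sites in the first exon of Pcdhac2, which were given the same replicate peaks. The summits of the replicates lay a median of 15.5 bp apart, and 50 of 58 were within 50 bp. Across the 58 sites Spearman's rho between the replicates was 0.78 and Pearson's r of the log2 values 0.90. Across the 40 member sites seen in both they were 0.66 and 0.80. These are descriptions across sites that share their libraries.

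To compare strength, the log2 of replicate 1 over replicate 2 was taken at each site, less its median over the optimal list. It had an SD of 0.54 over the 40 member sites. It was 0.50 over 56235 sites of the optimal list and 0.66 over their weaker part. Of the 40, 27 were above 0. The extremes were all gamma genes. By class the SD was 0.55 for alpha, 0.40 for beta, 0.61 for gamma A, 0.81 for gamma B and 0.41 for c-type sites. Pcdhgb8 had 36.8 in replicate 1 and 9.53 in replicate 2 (centred log2 ratio 1.75), Pcdhga5 had 29.0 and 10.3 (1.30), and Pcdhga4 had 11.1 and 22.4 (−1.22). By class the median centred ratio was 0.11 for alpha, 0.03 for beta, 0.25 for gamma A, 0.19 for gamma B and −0.10 for c-type sites, each within the spread of its class. In both replicates the class median was highest for c-type and lowest for beta sites, although the c-type medians rest on 2 sites in replicate 1 and 3 in replicate 2. In between, gamma B stood above gamma A and alpha in replicate 1 (36.8, 29.1 and 18.1), and gamma A above alpha and gamma B in replicate 2 (17.6, 16.3 and 15.9). The order of these 3 classes was thus not the same in the replicates. With 1 library on each side, none of these differences was tested. The list was itself selected for sites that the replicates share, so part of their likeness was built in.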

How the data were processed

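CTCF ChIP-seq peak lists on mm10 were deposited, per the labels. The deposited lists give each peak a signal value, −log10 of a q-value, and, in the optimal and conservative lists, the authors' irreproducible discovery rate score. No source used here names the aligner, the caller or the depth, so no counting interval could be had. Each replicate and pooled list holds 300000 peaks, so list length sets their weakest entries. Summits were placed by start plus offset and compared with GENCODE M21 TSSs. A replicate's value at a site was its strongest overlapping peak. All 58 members were also matched to RefSeq starts.

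Shares were read beside all protein-coding genes, without tests. The members, gene lists, words and rules were chosen with earlier results of these data known. Named with values were the 5 strongest members, the strongest and weakest of each class, c-type genes, non-promoter sites above the list median and the 3 strongest genes of other lists, with others added after their values were seen. On simulated data, the consensus search found 100% of 2485 planted matches. These had at most 1 mismatch, so a limit of 2 must find them, and the figure checks the code only. It matched 1.75% of 2515 random windows, against 2.91% of real flanking windows. The weight matrix was not simulated. Sequences of this chromosome are not printed here. Python 3.11.15, numpy 2.4.6, pandas 2.3.3, scipy 1.17.1, pysam 0.24.0, samtools 1.23.1 and matplotlib 3.10.9 were used.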

Additional observations from a re-analysis of the deposited data

How the results depend on the processing

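Of 179 values over 37 results, 151 stayed within the set limits. In the upper part of the optimal list by signal value, 8 members had a site (1 alpha, 0 beta, 3 gamma A and 2 gamma B), and the region 19 (2 alpha, 0 beta, 0 between beta and gamma, and 7 in the gamma variable segment). A 5 kb window gave 5 c-type genes, a 2 kb window a c-type median of 62.6, and the conservative list 1 site between beta and gamma. The pooled list at a q-value of 0.05 had 21 alpha, 22 beta and 14 downstream sites. Motif shares followed the rule: 13.3% with 1 mismatch (3 plus in the gene segments, 0 plus elsewhere), 61.7% with 3 (26 plus and 1 minus in the gene segments), 53.3% (24 plus) with the weight matrix, and 2 plus elsewhere with a 100 bp window. The weight matrix at 150 bp, chosen after seeing the data like the RefSeq starts, gave 61.7% (25 plus, 1 minus). To leave out a replicate, the optimal list was replaced by as many of the strongest peaks of the other replicate's own list. Those peaks passed no test of reproducibility. Members with a site then numbered 39 to 40, and sites of the region 55 to 56. No paired analysis was possible because there is 1 group. Sites with low signal values depend on a list rule, and the scale and depth behind them are not known.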

Other observations

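Other genes of the system had CTCF near an annotated TSS as well, though not always at the start of the gene. Of 12 protocadherins outside the clusters, 8 had an optimal-list summit within 1 kb of a TSS (66.7%), against 36.8% of protein-coding genes. The strongest were Pcdh1 with a signal value of 485, Pcdh7 with 193 and Pcdh9 with 101. Pcdh1 exceeded every clustered member, Pcdh7 all but Pcdhac1, and Pcdh9 all but Pcdhac1, Pcdhga12 and Pcdhgc3. Of 12 genes for factors that act on the clusters, 10 had one (83.3%), and Wapl, which releases cohesin from DNA, and Setdb1, a histone methyltransferase, did not. Stag1, a cohesin subunit, had 429, Stag2, its close relative, 205, and Smc3, a core subunit of the cohesin ring, 170. The Stag1 site (chromosome 9, 100643408 to 100643737) is near a TSS well inside the gene, which starts at 100597798.

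For comparison with the beta and gamma promoters, where matches were partial or missing, a match to the CTCF consensus of 14 bases is shown. It is given for 3 of these genes with strong to moderate sites. Each is the match with the fewest mismatches within 50 bp of the summit. Capitals mark bases that fit the consensus (GRCm38). The Stag1 sequence, with 0 mismatches, lies at chr9:100643573-100643586 on the plus strand. Smc3, with 1, lies at chr19:53599909-53599922 on the plus strand, and Pcdh9, with 2, at chr14:93890931-93890944 on the plus strand.
Stag1: CCAGCAGAGGGCGG
Smc3: CCAGCAGGaGGCGC
Pcdh9: CCgGCAGGGGcCAG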
